A study of Arabidopsis thaliana with 88 samples.

Results

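Accession 6909 is Col-0, the inbred line of Arabidopsis thaliana whose genome is the TAIR10 reference, and its leaf DNA methylation is described here against 31 other natural accessions. It made up 4 of the 88 bisulfite sequencing libraries and 1 of the 32 accessions. Its members were the 4 columns carrying the accession number 6909, and each other accession was taken as the mean of its own libraries, 84 in all. Among the others, 3 accessions had 1 library, 13 had 2, 5 had 3 and 10 had 4. The study addressed the silencing of long noncoding RNA (lncRNA) loci in natural accessions. All lines, 6909 included, were natural accessions that had received no treatment, grew on soil at 21 °C under 16 h of light and 8 h of dark, and gave mature leaves of 2 to 3 plants before bolting. A replicate number stands for 1 round of sowing, growth and collection, so 6909 is 1 genotype grown 4 times. Its spread over libraries is a spread between rounds, and with 1 reference line no statement about reference accessions in general can be made. The tables hold no marker of leaf tissue, so the labelled tissue was not checked.

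Plant DNA is methylated in 3 sequence contexts. MET1 copies CG methylation, CMT3 maintains CHG methylation through a loop with methylation of histone H3 lysine 9, and CHH methylation is laid down by CMT2 and by small RNAs through the RNA-directed pathway. Bodies of many active genes carry CG methylation alone, whereas silenced transposable elements (TEs) carry all contexts. Reads are placed on the Col-0 genome, so a locus that another accession lacks, or carries in a diverged form, may receive no reads there. In these tables a CHH level of exactly 1 was read as no data.

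**Figure D1:**
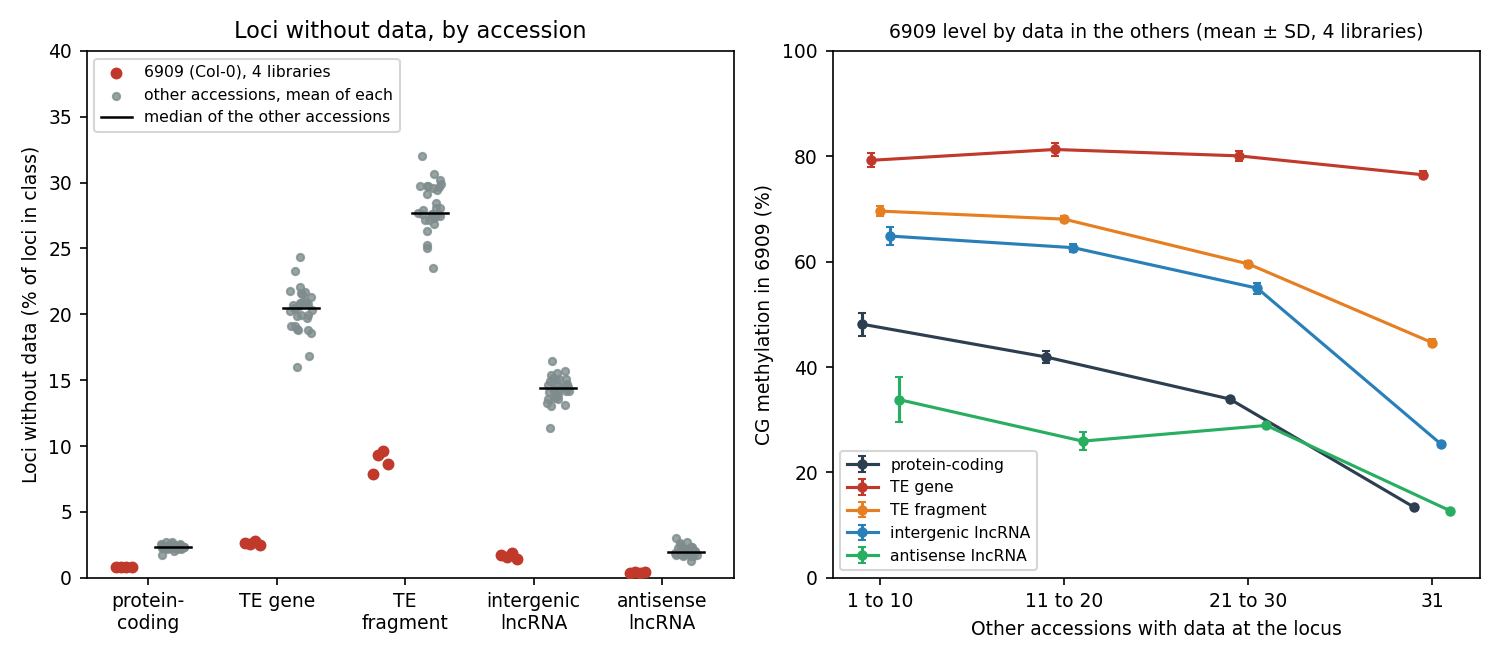
Left, the share of loci without data (% of loci in the class, y axis) by locus class, with the 4 libraries of 6909 and the other 31 accessions as points. Right, mean CG methylation of 6909 (%, with the SD over 4 libraries) against the number of other accessions with data at the locus. 6909 lies below every other accession in each class, and its CG level in protein-coding genes and TE fragments is higher at loci with data in 1 to 10 others than at loci with data in all 31.

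6909 had data at more loci than any other accession. In TE genes (genes annotated as encoded by TEs) the 4 libraries of 6909 lacked data at 2.61%, 2.56%, 2.82% and 2.49% of loci, against 16.0% to 24.4% in the others (median 20.5%). Protein-coding genes without data made up 0.809% ± 0.0183 (SD, n = 4) in 6909 and 1.76% to 2.72% in the others. The share was 8.87% ± 0.754 in 6909 and 23.5% to 32.0% in the others for TE fragments, and 1.65% ± 0.216 in 6909 and 11.4% to 16.4% in the others for intergenic lncRNAs of the authors' own annotation. Antisense lncRNAs lacked data at 0.416% ± 0.0465 of loci in 6909 and at 1.31% to 3.05% in the others. In all 5 classes 6909 was the lowest of 32 accessions, with no overlap.

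Loci that few other accessions could report were more methylated in 6909 than loci that all could report. Among protein-coding genes, the 100 with data in 1 to 10 others averaged 48.1% CG methylation in 6909, the 242 with data in 11 to 20 averaged 41.9%, the 1089 with data in 21 to 30 averaged 33.9%, and the 25304 with data in all 31 averaged 13.5%. The 14 genes with data in no other accession averaged 38.2% ± 17.7 (SD over libraries). CHG methylation of 6909 in the groups with data in 1 to 10, 11 to 20, 21 to 30 and all 31 others was 15.5%, 14.1%, 11.7% and 1.28%. These groups also differed in gene size, with median lengths of 755.5, 817.5, 951 and 2164 bp. Intergenic lncRNAs of 6909 averaged 64.9% CG where 1 to 10 others had data (77 loci) and 25.3% where all 31 had data (1278 loci). TE fragments (annotated TEs and their remnants) averaged 69.6% in 6909 at 2202 such loci and 44.6% at the 10818 loci with data in all, while the 144 with data in no other averaged 60.1%. TE genes were near the same level throughout, 79.2% at 152 loci and 76.5% at 1640 loci. The CG means leave out loci fully methylated in every library with data, so those of loci with data in few accessions may be too low. Absence of a locus, divergence of its sequence and thin coverage cannot be told apart here, since the tables give no read counts.

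Some loci had a value in 6909 and in no other accession: 14 protein-coding genes, 8 TE genes, 144 TE fragments, 3 intergenic lncRNAs and 2 antisense lncRNAs. The reverse, no value in 6909 but one in at least 1 other, held for 20, 5, 201, 4 and 2 loci of the same classes, and in at least 25 others for 10 TE fragments, 1 antisense lncRNA and none of the other 3 classes. Among protein-coding genes with data in the fewest others, AT4G11870 (chr4:7140359-7140719) had CG levels of 0%, 0%, 1.82% and 0% in 6909 and no data elsewhere. AT5G36460 (chr5:14357626-14357982) also had no data elsewhere, with CHH at 0% in all 4 libraries and no CG value kept after filtering. AT2G07777 (chr2:3249396-3251545, in a stretch of chromosome 2 with mitochondrial DNA) had data in 1 other accession and was methylated in every 6909 library, at 100%, 86.7%, 78.6% and 88.5% CG, with CHG at 50%, 60%, 28.6% and 21.7%. AT3G44755 (chr3:16301834-16302731) averaged 0.294% CG in 6909 with 1 other in the data, and AT3G47675 (chr3:17576004-17576867) was at 0% with 2 others. Loci without data elsewhere are kept out of all comparisons that follow.

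**Figure D2:**
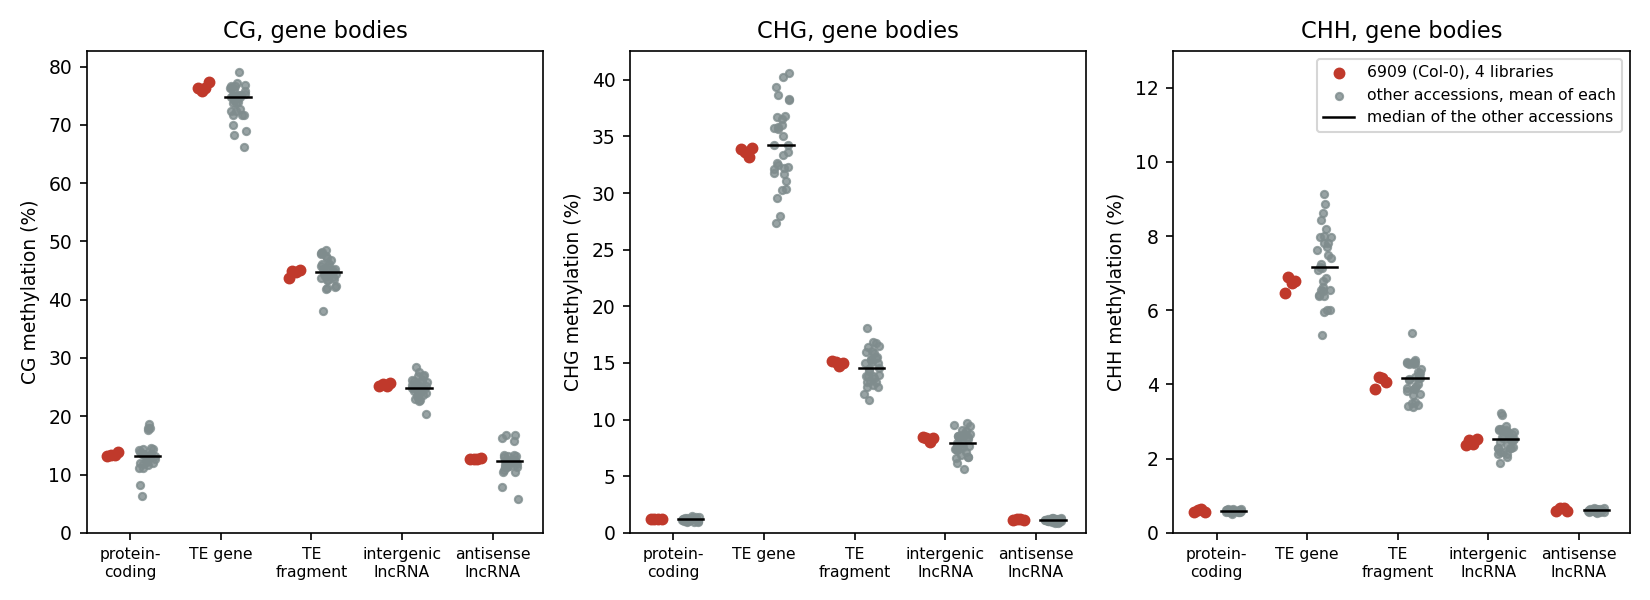
Mean gene-body methylation (%, y axis) of each locus class in CG, CHG and CHH, over loci with data in all 32 accessions. The 4 libraries of 6909 lie inside the range of the other 31 accessions in every class and context.

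At loci with data in all 32 accessions, the average methylation of 6909 lay inside the range of the others in every class and context. Gene-body CG methylation of 25295 protein-coding genes was 13.2%, 13.4%, 13.3% and 13.9% in the 6909 libraries, against 13.2% ± 2.54 (SD) over the 31 others, which ranged from 6.30% to 18.7%. TE genes (1640 loci) were at 76.3%, 75.9%, 76.4% and 77.4% CG in 6909, against 74.0% ± 2.85 in the others, and 6909 ranked 6 of 32. The difference of 2.50 percentage points gave a 2-sided exact permutation p of 0.3125 over accessions. TE-gene CHG was 33.7% in 6909 and 34.2% ± 3.48 in the others, and TE-gene CHH was 6.73% in 6909 and 7.23% ± 0.932 in the others. Intergenic lncRNAs were at 25.4% CG and 8.29% CHG in 6909, and at 24.9% CG and 7.95% CHG in the others. None of the 15 class levels differed by the exact permutation test, with an adjusted p of 0.969 in each. With 1 accession against 31 no p under 0.03125 can be reached. After adjustment over 15 levels, 1 extreme level alone therefore cannot pass 0.05, so the test could not find a difference limited to 1 class and context.

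Promoter levels (the 400 bp around the annotated start, described without a test) put 6909 outside the range of the others in CHH of 2 classes. Protein-coding promoters had 0.673%, 0.749%, 0.779% and 0.697% CHH methylation in 6909, against 0.567% to 0.705% over the others, and the mean of 6909 was the highest of 32, although replicates 1 and 4 lay inside that range. The excess over the mean of the other accessions of the same round was 0.0395, 0.102, 0.116 and 0.0551 percentage points in rounds 1 to 4. Antisense lncRNA promoters, which share sequence with genes, were also highest in 6909, at 0.690% CHH against 0.535% to 0.677% in the others. Here too replicates 1 and 4 of 6909, at 0.653% and 0.640%, lay inside that range. Protein-coding promoter CG methylation was near the low end, at 4.24% in 6909 against 3.56% to 6.11% in the others (rank 30 of 32).

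Single loci were compared with limma on accession means, over loci with a value in 6909 and in at least 25 others. A locus was called at a Benjamini-Hochberg adjusted p under 0.05 over its whole table and a difference of at least 20, 10 or 5 percentage points in CG, CHG or CHH. In Araport11 gene bodies 67 of 48256 loci were higher in 6909 in CG (0.139%) and 27 were lower (0.056%). CHG gave 104 higher (0.228%) and 4 lower (0.00877%). CHH gave 108 higher (0.213%) and 2 lower (0.00394%). Promoter CG was higher in 6909 at 224 loci (0.439%) and lower at 35 (0.0687%), and promoter CHG at 264 (0.545%) and 1 (0.00206%). Promoter CHH was higher at 206 (0.402%) and lower at 0 (0.0%), where 1 promoter was lower at an unadjusted p under 0.05 and the minimum difference, and 1807 had such a p in either direction at any difference. With values of 1 kept as methylation the gene-body CG balance turned round, to 50 higher and 391 lower in 6909.

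Many of these calls rested on 1 library. 6909 enters the fit as 1 accession and adds nothing to the spread, so a locus at 0% in the others can be called on 1 deviating library. In CG, 23 of the 67 higher gene bodies and 142 of the 224 higher promoters had 1 library of 6909 at exactly 100% and the other libraries under 10%. The account therefore turns on loci at which each of the 4 libraries lay beyond every other accession, a condition chosen after the values were seen. It left 27 gene bodies higher (0.056%) and 9 lower (0.0187%) in CG. CHG kept 20 higher (0.0439%) and 2 lower (0.00439%), and CHH kept 6 higher (0.0118%) and 2 lower (0.00394%). Among promoters 28 stayed higher (0.0549%) and 12 lower (0.0235%) in CG. For CHG these were 41 (0.0846%) and 1 (0.00206%), for CHH 25 (0.0488%) and 0 (0.0%). The 27 higher gene bodies lay in 24 places more than 5 kb apart, and the 9 lower ones in 6 places.

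The protein-coding genes called in gene-body CG and CHG were all higher in 6909. The whole gene-body tables gave 0.139% higher and 0.056% lower in CG, and 0.228% higher and 0.00877% lower in CHG. Protein-coding genes with data in all accessions averaged 13.2% CG and 1.18% CHG in the others, below the minimum differences of 20 and 10 points. What part these low levels have in the balance was not tested. In gene-body CG, 26 of 26223 protein-coding genes were higher in 6909 and 0 were lower by limma, against 147 higher and 15 lower at an unadjusted p under 0.05 and the same minimum difference, among 599 genes with such a p at any difference; with all 4 libraries beyond, 15 were higher. In gene-body CHG 27 of 26165 were higher and 0 lower by limma. At an unadjusted p under 0.05 and the minimum difference, 76 were higher and 2 lower, among 621 with such a p. TE genes had 3 higher and 3 lower in gene-body CG among 3029 tested, and 4 higher and 2 lower in gene-body CHG among 2908. In promoters they had 3 higher and 4 lower in CG among 2374 tested, and 15 higher and 1 lower in CHG among 2143. Whether the difference in balance between the classes exceeds chance was not tested.

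**Figure D3:**
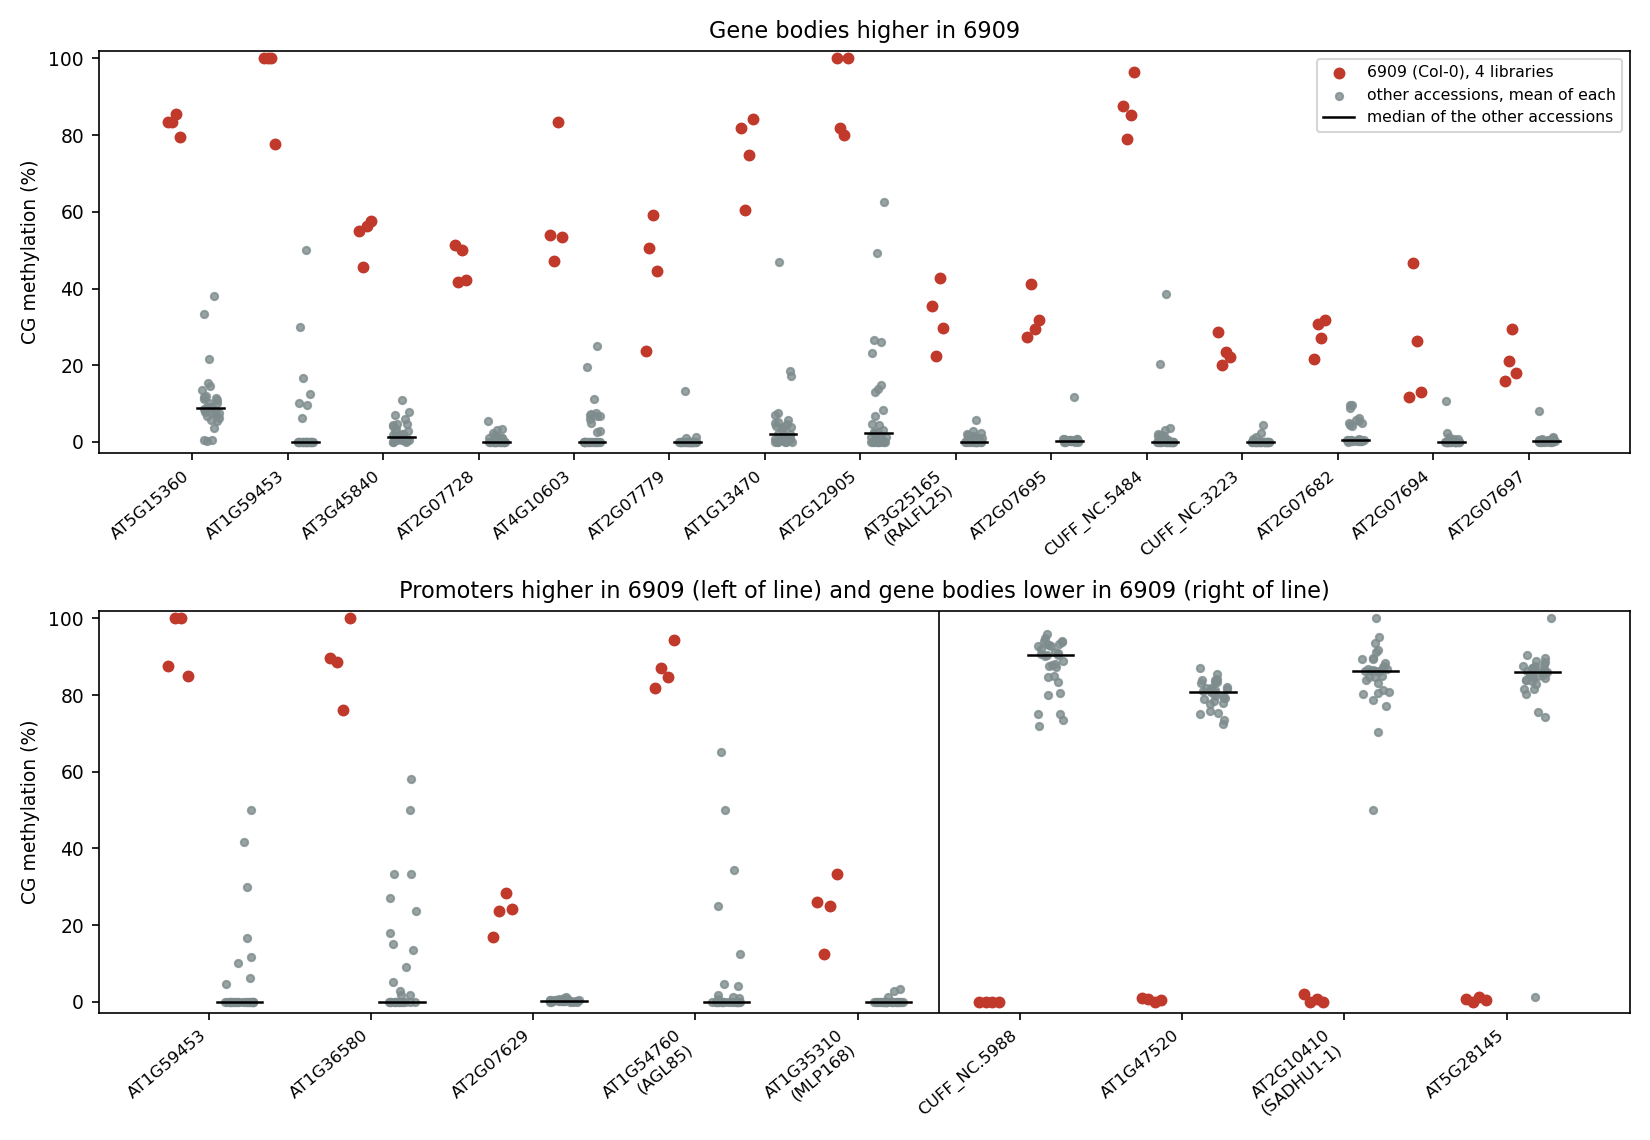
CG methylation (%, y axis) of named loci in the 4 libraries of 6909 and in each other accession with data. At the higher loci the 6909 libraries lie above the other accessions, and at the lower loci they lie at or near 0%.

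AT5G15360 (chr5:4987437-4989182, minus strand) was, of the called protein-coding genes with all 4 libraries beyond the others, the gene with the widest gap in gene-body CG between 6909 and the nearest of 30 other accessions. Its CG methylation was 83.3%, 83.3%, 85.4% and 79.6% in 6909, against 0.313% to 37.9% (median 8.80%) in the others, a difference of 72.4 ± 8.22 percentage points (SE; limma adjusted p = 6.69e-07). CHG methylation of this gene was 49.6%, 30.3%, 45.7% and 53.8% in 6909, with a maximum of 20% elsewhere, so its body was methylated in more than CG. Its promoter averaged 4.86% CG in 6909. The overlapping antisense lncRNA CUFF_NC.9403 had 85.6%, 86.2%, 87.1% and 81.5% CG in 6909; bisulfite values of overlapping loci come from the same cytosines.

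AT1G59453 (chr1:21846902-21849405, minus strand) was methylated in body and promoter in 6909. Its body had 100%, 100%, 100% and 77.8% CG in 6909, against a median of 0% and a maximum of 50.0% in 31 others (difference 90.1 percentage points, adjusted p = 1.59e-06). Promoter CG was 87.5%, 100%, 100% and 85.0% in 6909, with 50.0% as the highest other accession. Promoter CHG was 40.5%, 31.8%, 27% and 31.9% in 6909 and no more than 1.85% in any other, which placed it among the promoters methylated only in 6909.

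AT1G13470 (chr1:4620101-4621585) had 81.7%, 60.5%, 74.8% and 84.3% CG in 6909, against a median of 2.16% and a maximum of 47.0% in accession 5486 (difference 70.5 points, adjusted p = 5.68e-06). Its CHG level averaged 36.1% in 6909, against at most 27.4%. AT3G45840 (chr3:16847904-16849944) had 55.0%, 45.7%, 56.3% and 57.6% CG in 6909, against 0% to 10.9% in 30 others (difference 51.2 points, adjusted p = 1.49e-14). Both genes were named under the condition that every 6909 library lay beyond the others. AT3G45840 had a gap of more than 30 points to the next accession and an unmethylated promoter.

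RALFL25 (AT3G25165, chr3:9163340-9163938, minus strand), which encodes a peptide of the rapid alkalinization factor family, was methylated in CG but not in CHG. It had 35.5%, 22.4%, 42.9% and 29.7% CG in 6909, against at most 5.71% in the others (difference 31.8 points, adjusted p = 1.33e-17), with CHG at 0% in 6909. The antisense lncRNA CUFF_NC.5797 over it had 44.0%, 24.1%, 44.3% and 35.5% in 6909, against at most 6.06%. In the authors' own annotation the promoter of CUFF_PC.11880 at this gene had 42.9%, 48.1%, 69.4% and 61.1% CG in 6909 and at most 8.82% elsewhere. By the level rule this promoter was methylated only in 6909.

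The MADS-box gene AGL85 (AT1G54760, chr1:20433912-20434397) was higher in both body and promoter. Body CG was 83.9%, 84.1%, 87.0% and 92.6% in 6909, against a median of 0% and a maximum of 72.7% in accession 5486 (limma adjusted p = 0.000189). Promoter CG was 81.8%, 87.0%, 84.6% and 94.4% in 6909, against at most 65.2% (difference 80.5 points, adjusted p = 0.003). All 4 libraries lay above every other accession in body and promoter, which for the promoter was a condition of its choice. In the promoter the next highest after accession 5486 was accession 8244 at 50.0%. The remaining protein-coding bodies that the rule named were AT4G10603 (53.8%, 47.1%, 83.3% and 53.3% in 6909, against at most 25%), AT2G12905 (100%, 81.8%, 80% and 100% in 6909, against at most 62.5%), AT2G07728, AT2G07779 and AT2G07695.

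Among protein-coding genes, 10 of 25572 promoters and 15 of 26223 bodies were higher in CG under the stricter condition. By limma alone the order was reversed, with 137 promoters and 26 bodies higher. Most of these promoter calls had 1 library of 6909 at exactly 100% and the others under 10%. Over the whole Araport11 tables the stricter shares were nearly equal, 0.0549% of promoters and 0.056% of bodies. Whether promoters and bodies differ was not tested. AT1G36580 (chr1:13816459-13818556) had promoter CG of 89.7%, 88.6%, 76.2% and 100% in 6909, against at most 58.0% in 29 others (difference 78.5 points, adjusted p = 0.00626), while its body, at 26.6% in 6909, was not called. MLP168 (AT1G35310, chr1:12956119-12957090), a member of the major latex protein-like family, had promoter CG of 26.1%, 12.5%, 25% and 33.3% in 6909, against at most 3.33%. The promoter of the own-annotation locus CUFF_PC.19929 (chr5:9355953-9358136) had 68.6%, 53.1%, 54.8% and 50.0% CG in 6909 and at most 9.52% elsewhere, which met the rule for methylation only in 6909. Among loci named by rule, with values of 1 kept as methylation, the calls of AT5G15360, AT3G45840, AT2G07779, AT1G36580 and MLP168 were lost, with adjusted p of 0.128, 0.478, 0.159, 0.714 and 1.0; on an arcsine scale AT1G36580 was lost (adjusted p = 0.0993). Of all 293 calls with all 4 libraries beyond the others, over the 12 tables, 232 were kept on that scale.

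A cluster of higher loci lay on chromosome 2 between 3.2 and 3.6 Mb, where the Col-0 reference carries a large insertion of mitochondrial DNA. Of 125 Araport11 loci tested there in gene-body CG, 12 were higher in 6909 and 0 lower, and they gave 9 of the 27 loci above every other accession in all libraries. The window averaged 50.6%, 52.9%, 51.4% and 50.9% CG in 6909, against 35.9% to 46.1% (median 42.3%) in the others, and the groups did not overlap. In the authors' own annotation 84 loci were tested in the window and 16 were higher, 10 of the 24 such loci genome-wide; their mean was 29.0% ± 2.78 in 6909 (SD, n = 4) and 10.2% to 18.5% in the others. Own-annotation CHG was likewise higher, at 9.94% in 6909 and 2.61% to 6.64% in the others, and own-annotation CHH was 1.94% in 6909 and 0.821% to 1.81% in the others. Araport11 CHG in the window overlapped between the groups, at 18.6% in 6909 and 11.2% to 20.2% in the others. Araport11 CHH was toward the low side, at 2.92% in 6909 and 2.45% to 5.09% (median 3.99%) in the others.

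The genes called higher in the window had intermediate levels in 6909, while others there lay anywhere between 0% and 100%. In gene-body CG the loci with all libraries above every other accession lay between positions 3254364 and 3456127. By their medians, genes from AT2G07773 to AT2G07835 were nearly unmethylated in the others. TE genes at both ends of the window were methylated alike, such as AT2G07620 (81.0% CG in 6909, median 83.3% in the others) and AT2G07770 (79.7% and 84.4%). The called genes given here include AT2G07774 and AT2G07676, named after their values were seen. AT2G07728 (chr2:3453686-3456127) had 51.4%, 41.7%, 50.0% and 42.1% CG in 6909, against at most 5.56%. AT2G07774 had 30.2%, 25%, 26.2% and 35.3% in 6909, against at most 14.3%, and AT2G07676 had 18.2%, 21.5%, 21.4% and 26.4%, against at most 6.68%. The TE genes AT2G07682 (21.6%, 30.7%, 27.1% and 31.8% in 6909, against at most 9.60%), AT2G07694 (11.8%, 46.7%, 26.3% and 12.9%, against at most 10.6%) and AT2G07697 (16.0%, 21.1%, 29.5% and 18.0%, against at most 8.18%) lay there too. In each of these 6 genes every 6909 library lay above every other accession, which was a condition for naming AT2G07728 and the TE genes. The insert has near-identical copies in the mitochondrial genome, whose reads may be placed on it, so all values in the window are uncertain; what part such reads have in the difference was not tested. Inside the window ABCC13 (AT2G07680, chr2:3514668-3522658), an ABC transporter gene named after its values were seen, had body CHG of 23.6%, 19.1%, 24.1% and 26.3% in 6909, against at most 17.5% (adjusted p = 0.000106).

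Among intergenic lncRNAs, a class at the centre of the study, few loci were called, and more were higher than lower in 6909. In gene-body CG 5 of 1783 were higher and 2 lower in 6909, and 2 higher and 1 lower with all 4 libraries beyond the others. The whole table gave 45 of 35108 own-annotation loci higher (0.128%) and 9 lower (0.0256%), or 24 (0.0684%) and 6 (0.0171%) with all 4 libraries beyond. Its CHG table gave 48 higher (0.138%) and 3 lower (0.0086%), or 23 (0.0659%) and 1 (0.00287%) with all 4 libraries beyond. Its CHH table gave 20 higher (0.057%) and 1 lower (0.00285%). Of the intergenic lncRNAs in these tables, 8 of 1718 were higher and 0 lower in CHG, and 2 of 1784 higher and 0 lower in CHH. At an unadjusted p under 0.05 and the minimum difference, CHG had 17 higher and 1 lower, and CHH 12 higher and 0 lower. Their promoters had 6 of 1681 higher in CG, 6 of 1546 in CHG and 7 of 1689 in CHH, with 0 lower in each; 10 were lower in CG at that unadjusted p and difference, and 0 in CHG or CHH. The promoter tables as a whole gave 180 higher (0.531%) and 6 lower (0.0177%) for CG, 101 (0.304%) and 1 (0.00301%) for CHG, and 79 (0.232%) and 0 (0.0%) for CHH. In 4 of the 6 higher CG promoters of intergenic lncRNAs, 1 library of 6909 was at exactly 100% and the others under 10%. CUFF_NC.5484 (chr3:5930715-5931234), 2799 bp from its nearest gene AT3G17350, had 87.5%, 78.9%, 85.3% and 96.6% CG in 6909, against a median of 0% and a maximum of 38.5% in accession 6021 (difference 84.7 points, adjusted p = 2.6e-09). It carried all contexts, with CHG at 63.6%, 73.9%, 52.6% and 55.6% in 6909 against at most 19%, and promoter CHH at 20.3%, 25%, 26.4% and 22% against at most 5.56%. CUFF_NC.3223 (chr2:3265609-3266022) lay in the chromosome 2 window, at 28.6%, 20%, 23.5% and 22.2% in 6909 against at most 4.52%.

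The opposite pattern was found at CUFF_NC.5988 (chr3:10758575-10759216), 325 bp from AT3G28700. It was unmethylated in CG in every 6909 library (0%), against 72.0% to 95.8% (median 90.4%) in the 31 others, a fall of 87.8 points (adjusted p = 4.93e-11). Its CHG was also 0% in 6909 and 12.7% to 53.5% in the others, without a call (adjusted p = 0.129). CUFF_NC.6538 (chr3:17254700-17255262) was at 0% CG in all 4 libraries of 6909 and at 55.4% to 100% in the 25 others with data (adjusted p = 2.94e-05). By position CUFF_NC.6538 is a noncoding locus outside the intergenic and antisense classes. 6909 thus held the unmethylated state alone among accessions with data at both loci. CUFF_NC.6141, named after its values were seen, had 1.43%, 0%, 13.5% and 0% in 6909 and a median of 83.2% in the others, 1 of which was at 2.00%.

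Antisense lncRNAs lie over genes and share cytosines with them. In gene-body CG 18 of 7948 were higher in 6909 and 0 lower by limma (65 higher and 11 lower at an unadjusted p under 0.05 and the minimum difference, among 239 with such a p), and 9 were higher with all 4 libraries beyond. CUFF_NC.472 over AT1G13470 had 82.6%, 73.3%, 80.4% and 85.7% in 6909, against at most 56.7%. CUFF_NC.6774 at AT3G52640 had 17.2%, 15.8%, 10.5% and 12.2% CHH at its promoter in 6909, beside 17.0%, 10.8%, 10% and 12.8% at the promoter of AT3G52640 itself, where no other accession exceeded 1.67%.

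The loci lower in 6909 included 3 TE genes that were methylated in nearly every other accession and unmethylated in 6909. AT1G47520 (chr1:17443288-17446628) had 1%, 0.847%, 0% and 0.565% CG in 6909, against 72.4% to 87.0% in all 31 others, a difference of −79.7 ± 3.50 points (SE; adjusted p = 2.11e-17). The level was low in every context, with CHG at 3.88%, 0.369%, 0% and 0.465% in 6909 against 40.8% to 61.5% (adjusted p = 1.71e-07) and CHH averaging 0.402% in 6909 against 6.13% to 13.7% (adjusted p = 0.0109). Its promoter was at 4.00%, 0%, 0% and 0% CG in 6909 and at 62.5% to 100% in the others.

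SADHU1-1 (AT2G10410, chr2:4005995-4007044), a member of the Sadhu family of non-autonomous retroposons, had 1.96%, 0%, 0.820% and 0% CG in 6909, against 50.0% to 100% in the others (difference −84.1 points, adjusted p = 5.27e-08). Here CHG was 0% in 6909 but reached no more than 25.2% in the others, and was not called. The fragments AT2TE16940 and AT2TE16945, which overlap SADHU1-1, were low in CG in 6909 as well, at means of 4.99% and 0.695%. Next to them, 2 loci chosen after their values were seen were higher in CHG in 6909. The TE fragment AT2TE16955 (chr2:4007517-4008741) had 69.0%, 64.9%, 74.6% and 79.3% CHG in 6909, against at most 53.7% (adjusted p = 0.043), and the promoter of AT2G10420 had 91.7%, 64.3%, 77.3% and 95.5% CHG, against at most 55.1% (adjusted p = 0.0355).

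AT5G28145 (chr5:10129022-10133676) was unmethylated in 6909 and in 1 other accession. It had 0.809%, 0%, 1.14% and 0.602% CG in 6909, against a median of 85.9% in the others (difference −82.1 points, adjusted p = 0.00454), but accession 9412 stood at 1.29%, and the other 30 stood at 50% or more. CHG averaged 0.556% in 6909, against a median of 44.5% (adjusted p = 0.0314).

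Methylation only in 6909 (at least 50%, 30% or 10% in CG, CHG or CHH there, and at most 10%, 5% or 2% in every other accession with data) and only outside it (the reverse) was rare. In Araport11 gene-body CG, 1 locus was methylated only in 6909 (0.00207%) and 5 only outside it (0.0104%). Counted alike for each other accession in turn, the numbers were 1 to 35 (median 9) and 9 to 105 (median 24); among the 10 others with 4 libraries they were 1 to 12 and 9 to 34. 6909 thus had no more such loci than any other accession in this table. For CHG there were 2 only in 6909 (0.00439%) and 2 only outside it (0.00439%), and for CHH 6 (0.0118%) and 0 (0.0%). The others had 3 to 27 and 1 to 13 in CHG, and 4 to 23 and 0 to 5 in CHH. Promoter CG gave 2 only in 6909 (0.00392%) and 6 only outside it (0.0118%), against 6 to 149 and 3 to 100 in the others. Promoter CHG gave 9 (0.0186%) and 1 (0.00206%), against 1 to 33 and 0 to 8 in the others; among those with 4 libraries the first ran from 2 to 9. Promoter CHH gave 4 (0.0078%) and 0 (0.0%), against 0 to 26 and 0 to 2. In gene-body CHG and promoter CG 6909 had fewer loci methylated in it alone than any other accession. In Araport11 promoter CHG it tied with the highest of the others with 4 libraries. In own-annotation promoter CHG it had 3 such loci (0.00903%), against 1 to 7 in the 10 others with 4 libraries, of which 6 had more. Accession means over fewer libraries leave more of these loci, so the numbers are not level between accessions.

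The 5 bodies methylated in CG only outside 6909 came from 2 places. One held AT1G47520 and the TE fragment AT1TE57805 inside it, and the other held SADHU1-1 with the fragments AT2TE16940 and AT2TE16945. In promoters the adjoining fragments AT2TE35315 and AT2TE35320 were at 0% in all 4 libraries of 6909 and at 50% or more in every other accession. In the own annotation, 4 loci were methylated in gene-body CG only outside 6909 (0.0114%) and 0 only in it (0.0%), among them CUFF_NC.5988 and CUFF_NC.6538; for CHG there was 1 only outside it (0.00287%).

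The fragment AT3TE62055 (chr3:15268459-15268910) was the locus methylated in gene-body CG only in 6909. It had 89.4%, 89.6%, 89.7% and 96.3% CG in 6909, against a median of 0% and a maximum of 3.85% in 30 others (difference 90.9 points, adjusted p = 1.13e-32). Its promoter window had 97.5%, 94.9%, 100% and 87.9% CG in 6909, against at most 1.14%, and body CHG averaged 23.0% in 6909, against at most 2.78%. The neighbouring fragment AT3TE62050 had 95.8%, 83.3%, 88.9% and 100% in 6909, against at most 36.7%. The other promoter methylated in CG only in 6909, that of AT2G07773 in the chromosome 2 window, had 100%, no data, 50.0% and 0%, so its libraries did not stand together.

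At the TE gene AT3G11970 (chr3:3807727-3812227) the 400 bp promoter window, which reaches into the gene, set 6909 apart. Promoter CG was 89.7%, 91.8%, 96.7% and 97.5% in 6909, against a median of 0% and a maximum of 13.4% in the others. Promoter CHG was 60.9%, 62.5%, 68.6% and 79.3% in 6909, against at most 3.12%. The body had data in only 24 others, too few to be tested. It overlapped with them, at 65.8%, 65.0%, 68.4% and 78.6% CG in 6909 against 3.70% to 100%. The fragments on each side, AT3TE16030 (promoter CHG 68.8%, 52.6%, 58.6% and 63.6% in 6909, against at most 4.17%) and AT3TE16040 (body CG 75.0%, 95.6%, 93.6% and 96.7%, against at most 24.6%), extended the block. Whether the element is present at this site in the other accessions was not tested. The 9 promoters methylated in CHG only in 6909 also included those of the protein-coding genes AT1G59453, AT2G40955 and AT5G13205. Of the 6 bodies methylated in CHH only in 6909, all TE fragments, most rested on 1 library and are not described further.

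**Figure D4:**
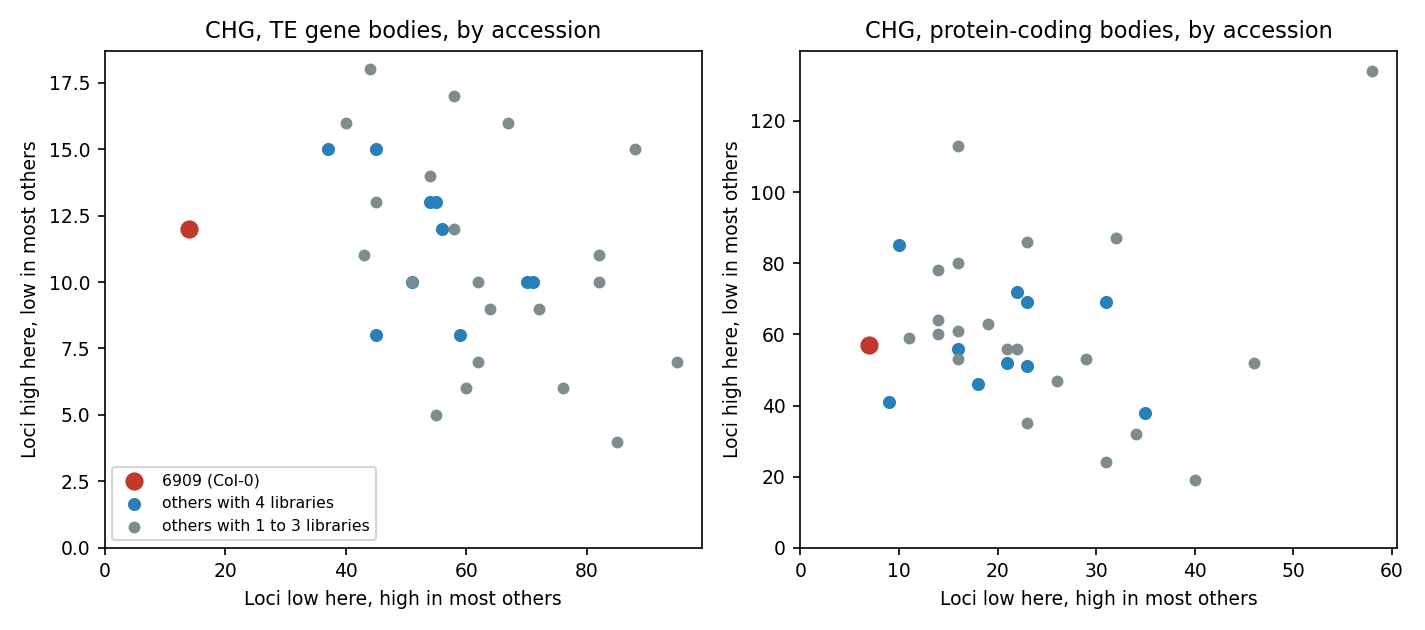
Number of loci with low CHG methylation here and high in most other accessions (x axis) against the number high here and low in most others (y axis), 1 point per accession, for TE genes (left) and protein-coding genes (right), with the 4-library mean of 6909. 6909 has the fewest loci of the first kind among 32 accessions in both.

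Among 32 accessions 6909 had the fewest TE genes with low CHG methylation where most accessions were high, a count chosen after the values were seen. Taking 30% and above as high and 5% and below as low, 14 TE genes were low in 6909 while more than 50% of the others were high, against 37 to 95 (median 58) when each other accession was counted alike. The 10 others with 4 libraries ranged from 37 to 71. The count stayed between 14 and 16 without any 1 library of 6909, and single libraries of 6909 gave 16 to 23, all below every other accession. Of 2908 TE genes tested, 2013 were high, 662 intermediate and 233 low in 6909.

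6909 also had the lowest gene-body count in TE fragments, protein-coding genes and intergenic lncRNAs, but not in antisense lncRNAs, where it had 5 such loci and the others 1 to 19. TE fragments gave 36 such loci in 6909 and 106 to 281 in the others, with 103 to 145 from single libraries of 6909. Protein-coding genes gave 7 in 6909 and 9 to 58 in the others, and intergenic lncRNAs gave 4 in 6909 and 5 to 29 in the others, with 7 to 11 from single libraries of 6909 in both classes. TE-gene promoters gave 7 in 6909 and 21 to 91 in the others, with 25 to 41 from single libraries. For the opposite state in gene bodies 6909 was in the middle: 12 TE genes were high in 6909 and low in most others (4 to 18 elsewhere), and 57 protein-coding genes (19 to 134 elsewhere, median 56). In promoter CHG it was near the top for TE genes and TE fragments, but not for protein-coding genes (64 in 6909, rank 12 of 32, against 29 to 125 elsewhere, median 60). There 31 TE genes were high in CHG in 6909 and low in most others, rank 2 of 32 (8 to 38 elsewhere, 9 to 21 in others with 4 libraries), and 246 TE fragments, rank 4 (85 to 409 elsewhere, 85 to 191 in others with 4 libraries). In promoter CHH (10% and above as high, 2% and below as low) 35 TE genes were high in 6909 and low in most others, against 4 to 31 elsewhere. Counts from single libraries are not given for it. By limma 11 of 2376 TE-gene promoters were higher in CHH, and 2 had all 4 libraries beyond the others. These counts cover only loci with data in 6909 and at least 25 others, and the loci tested are annotated on the genome of 6909 itself.

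None of the 7 lists of genes for methylation, immunity, flowering and metabolism held a called member in any Araport11 table. Of 92 listed genes tested in gene-body CG, 0 were higher and 0 lower by limma, and 3 had an unadjusted p under 0.05. In promoter CHG 0 of 79 were called and 5 had such a p. Calls were rare among all protein-coding genes too. In gene-body CG 26 of 26223 were called and 599 had such a p, and in promoter CHG 70 of 25272 were called and 1532 had such a p. Median gene-body CG differences (6909 minus the mean of the others) were −1.74 points for 11 DNA methyltransferase genes and DDM1, −0.79 for 5 demethylase genes, 1.04 for 25 genes of RNA-directed and histone H3 lysine 9 methylation, 2.00 for 19 immune receptors and −0.57 for 9 flowering genes. The median over all protein-coding genes was −0.287 points. One gene lay above all others in gene-body CG, SUVH5, which encodes a histone H3 lysine 9 methyltransferase, with 55.8%, 44.9%, 50.9% and 51.1% in 6909 and at most 50.4% in the others; of all protein-coding genes 1.3% lay above all others.

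Other genes that make or remove methylation lay inside the range of the others in gene-body CG. MET1 averaged 7.85% CG in 6909, against 0.282% to 45.7% in the others. DDM1, a chromatin remodeller needed for TE methylation, averaged 24.2%, ROS1, a demethylase, 30.3%, and IBM1, a histone demethylase that keeps CHG methylation out of genes, 34.5%; the medians elsewhere were 25.8%, 24.6% and 33.1%. The MET1 paralogue MET2A had 52.3% CG and 27.1% CHG in 6909, rank 6 of 32 in CG. The immune receptor gene RPP4 had 71.1%, 64.7%, 72.7% and 67.6% CG in 6909, and its CHG of 38.0% ranked 3 of 32. RPP7 was at 60.6% CG and 42.4% CHG in 6909. Both receptors belong to clusters of similar genes, so reads may be split among copies. The flowering repressor FLC was at 1.13% CG.

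**Figure D5:**
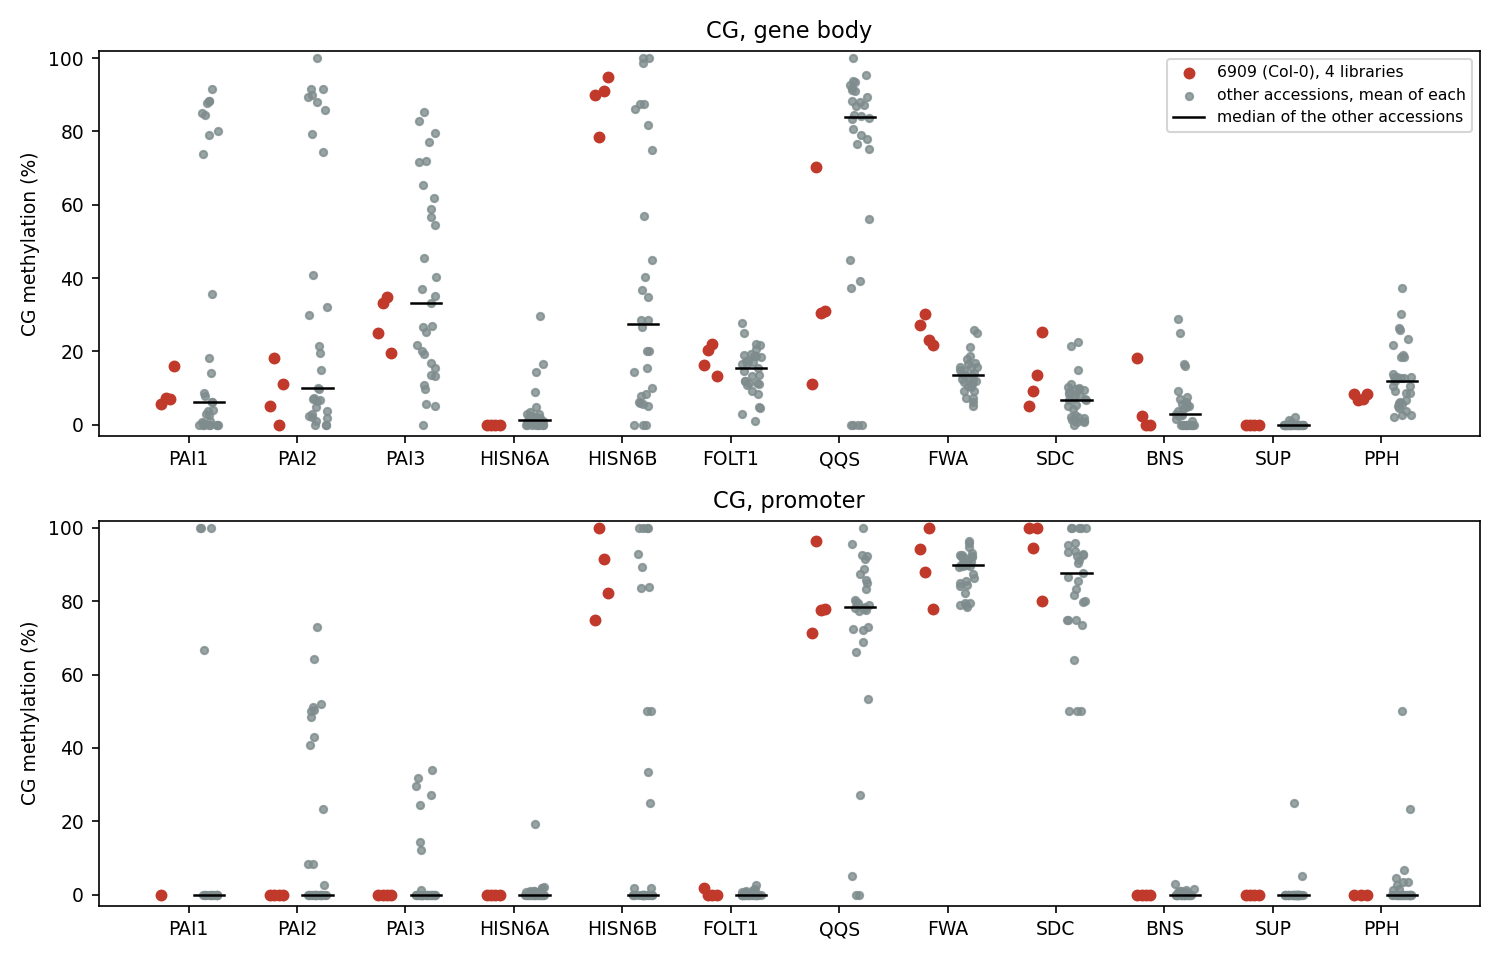
CG methylation (%, y axis) of genes known for natural or induced epialleles, in gene bodies and promoters, in the 4 libraries of 6909 and in each other accession. 6909 lies with the unmethylated accessions at PAI1, PAI2 and HISN6A and with the methylated ones at HISN6B and the FWA promoter.

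Known epialleles show which state 6909 carries. The tryptophan synthesis genes PAI1 and PAI2 were low in 6909, at 5.56%, 7.41%, 7.14% and 15.9% CG for PAI1 and 5.13%, 18.2%, 0% and 11.1% for PAI2, while 9 others stood at 50% or more at each. Of the duplicated histidine synthesis genes, HISN6A was at 0% in all 4 libraries of 6909, and HISN6B was at 90%, 78.6%, 91.1% and 94.9%, a state shared by 9 of 30 others. HISN6B promoter CHG was 62.5%, 83.3%, 65.4% and 77.8% in 6909, a mean of 72.2% above the highest other (66.4%), without a call (adjusted p = 0.618). PAI and HISN6 copies are near-identical in sequence, so reads may be split between them.

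The orphan gene QQS varied within 6909, at 11.1%, 70.4%, 30.4% and 30.9% CG over the 4 rounds, against a median of 83.9% in the others, while its promoter stayed at 71.4%, 96.4%, 77.5% and 78.0%. FWA, a homeodomain gene silent in leaves, had promoter CG of 94.3%, 88%, 100% and 77.8% in 6909 and 78.4% to 96.5% in all 31 others, a state shared by every accession. The promoter of SDC, an F-box gene silenced by methylation, averaged 93.6% CG in 6909.

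Over 25295 protein-coding genes, the gene-body CG profile of 6909 was close to that of the other accessions. The root-mean-square difference averaged 11 percentage points over the 31 pairs, against 10.9 to 16.1 (median 11.4) for the others counted alike, and 6909 ranked 28 of 32 from the highest. Its nearest accessions were 5486 (9.53 points) and 8366 (9.66), and its farthest was 6911 (15.6).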

How the data were processed

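Methylation was measured by bisulfite sequencing of leaf DNA with paired reads of 100 bp, per the labels. The deposited tables hold, per locus and library, a methylation fraction made by the authors, which is printed here as a percentage; there were 12 tables, for 3 contexts, gene bodies or promoters (400 bp around the start, by the tables' coordinates), and 2 annotations (Araport11 with TEs, and the authors' own). The genome build was TAIR10, per the submitters' processing notes; the aligner, the caller and any coverage limit are not given in the sources read here. No read counts were used, so depth is unknown and no interval for counting error is given.

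A CHH fraction of exactly 1 made up 15.9% of CHH values, and 98.5% of these were also 1 in CG and CHG; they were read as no data in all contexts, and so were CHG fractions of exactly 1 in CHG. CG fractions of 1 were kept where CHH was below 1, except that a locus at 1 in every library with data was left out of CG. Replicates were averaged per accession. limma 3.58.1 (R 4.3.3) set 6909 against the 31 others on fractions, assuming that 6909 varies like them. Class levels were compared by an exact 2-sided permutation test over accessions, adjusted by Benjamini-Hochberg over 15 levels. In simulated data 200 of 48256 Araport11 gene bodies were shifted by 60 points in CG, and 71.5% were recovered with 5 false calls. In the other tables and contexts, with shifts of 60, 40 and 20 points in CG, CHG and CHH, recovery was 59.0% to 97.0% per table. The simulated accession means, that of 6909 included, were normal with the mean and spread of the others. The simulation therefore cannot show how often 1 deviating library leads to a call.

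Loci were named by rule: up to 10 protein-coding genes in each direction in gene-body CG, by the gap to the nearest other accession with all 4 libraries beyond, up to 5 each for promoters, intergenic lncRNAs and TE genes, list members that were called, and up to 5 genes with data in the fewest other accessions. Loci methylated only in or only outside 6909 were added, and a few were named after their values were seen. The accession, the lists and the rules were chosen with earlier results of these data known. Gene symbols come from RefSeq (TAIR10.1), which matched 30829 gene identifiers. Coordinates are 1-based in TAIR10; lncRNA classes were rebuilt from coordinates (2152 intergenic, 8120 antisense).

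Replicate numbers mark rounds of sowing, per the series' design text. Deviations of same-round libraries from their accession means were hardly correlated, with r of 0.0346, 0.00961, −0.00253 and −0.0037 for 6909 against its round in protein-coding CG. Alternatives were values as deposited, stricter or no filters, an arcsine scale, libraries as units, a replicate block and leaving out each replicate. NumPy 2.4.6, pandas 2.3.3 and bedtools 2.31.1 were used.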

Additional observations from a re-analysis of the deposited data

Results flagged for a closer look

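In 53 groups of 4 libraries of 6909 examined (class levels and named loci), 1 library stood far from the other 3 in 2 groups, and chance alone gives about 1 in 20. The gene-body CHG level of intergenic lncRNAs was 8.02% in replicate 3 of 6909, while the other 3 libraries lay between 8.35% and 8.42%. The gene-body CG level of AT1G59453 was 77.8% in replicate 4 of 6909, while the other 3 libraries were at 100%.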

How the results depend on the processing

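The reading of values of exactly 1 turned directions. With values as deposited, the differences between 6909 and the others (percentage points, gene bodies, for protein-coding genes, TE genes, TE fragments, intergenic and antisense lncRNAs in that order) were −0.713, −1.37, −5.58, −4.4 and −0.781 in CG. The CHG differences were −1.41, −12.4, −13.5, −10.5 and −1.59, the CHH ones −1.51, −16.7, −17.9, −12.0 and −1.55; 10 of them reversed in sign, and 11 of the 15 passed the exact permutation test (adjusted p = 0.0426 in each). Calls as deposited in Araport11 gene bodies were 441 for CG (50 higher in 6909, 391 lower), 660 for CHG (41 and 619) and 564 for CHH (47 and 517). Promoters gave 560 (178 and 382), 839 (172 and 667) and 584 (109 and 475). Own-annotation gene bodies gave 114 (43 and 71), 121 (39 and 82) and 76 (16 and 60), and own-annotation promoters 285 in CHG (145 and 140) and 180 in CHH (76 and 104). Loci without data enter this setting as methylated, more of them in the others than in 6909.

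Other settings moved counts. In this order (CG, CHG, CHH of Araport11 gene bodies, of its promoters, then of own-annotation bodies and promoters), no minimum difference gave 189, 294, 237, 426, 1177, 413, 170, 161, 87, 383, 935 and 219 calls, and libraries as units gave 1772, 714, 281, 1886, 867, 489, 1210, 523, 134, 1085, 360 and 186, with 987 higher and 785 lower in the first table; libraries of 1 accession are not independent. Requiring a value in all 31 others left 58, 49 and 32 Araport11 gene bodies in CG, CHG and CHH, 128 and 113 promoters in CHG and CHH, and 63 and 47 own-annotation promoters in CHG and CHH. The arcsine scale left 48 Araport11 gene bodies, 54 promoters, 6 own-annotation bodies and 20 own-annotation promoters in CHH. CG values of exactly 1 as no data left 98 own-annotation promoters (94 higher and 4 lower). Class differences also changed sign for TE fragments in CG (0.695 as the median over loci, 1.0 over loci of at least 500 bp) and in CHH for TE fragments (0.31, median) and intergenic lncRNAs (0.0449, median). The cause was not tested.

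Loci methylated only in 6909 depended on the levels. With at least 90% of the others beyond the level they numbered 26, 23, 29, 29, 47, 52, 15, 11, 5, 16, 17 and 20 in the same order, and those only outside 6909 numbered 22 and 5 (Araport11 bodies, CG and CHG), 32, 2 and 1 (promoters), 9 and 3 (own bodies, CG and CHG) and 9 and 2 (own promoters, CG and CHG). Doubling the low level gave 2, 4 and 12 Araport11 bodies only in 6909, 4 and 17 promoters in CG and CHH, 1 own-annotation body in CG and 4, 5 and 3 own-annotation promoters. At 50% of the low level 4 promoters in CHG and 0 in CHH were left, and 0 own-annotation promoters in each context. With CG values of exactly 1 as no data 3 bodies, 6 promoters, 1 own-annotation body and 6 own-annotation promoters were methylated in CG only in 6909, and 1 promoter only outside it. With a value required in every library, 36 protein-coding genes, 32 TE genes, 514 TE fragments, 12 intergenic and 5 antisense lncRNAs had data in 6909 and in no other accession.

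Without any 1 replicate of 6909, the protein-coding CHH difference ran from −0.00993 to 0.0178 (reversed at −0.00439 without replicate 2 and −0.00993 without replicate 3). Loci only in 6909 ran from 1 to 2, 2 to 5 and 3 to 8 in Araport11 bodies (CG, CHG, CHH), 1 to 3 in promoter CG, 0 to 1 in own-annotation body CG and 1 to 3 in own-annotation promoter CHH, and loci only outside from 2 to 4 in own-annotation promoter CG. Call counts stayed within 1.5 times. With the replicate number as a block, 80 Araport11 gene bodies were called in CG, against 94 without it, and no class call changed. Of 293 calls with all 4 libraries beyond the others, 285 were kept under the block, 274 to 288 without a replicate, 232 on the arcsine scale, 197 with a value in all 31 others and 149 with values as deposited. Unknown depth limits single values, most at short loci with few cytosines.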

Other observations

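Some levels of 6909 belong in no comparison above. Mean gene-body CG methylation was also taken over all loci with a CG value kept in 6909, whether or not other accessions had data. It was 14.7% in 26725 protein-coding genes, 78.6% in 3814 TE genes, 54.9% in 25566 TE fragments and 38.1% in 2121 intergenic lncRNAs. The gene AT4G26350 had 61.5%, 35.0%, 43.4% and 58.4% CG in 6909, and at most 49.5% in the others. The paralogue MET2B was at 61.2% CG in 6909, and PAI3, the third gene of the PAI family, at 28.1%, with 11 others at 50% or more.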
